A study of Mus musculus with 22 samples.

Results

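The 9 transcripts described here, Krt7, Krt19, Epcam, Tspan8, Muc1, Spp1, Sox9, Sox4 and Bicc1, are markers of bile duct cells and of liver progenitor cells. They were chosen by name, for what they mark, with earlier results of these data known. They are 9 of the 18716 rows of the deposited expression table. RNA from 22 mouse livers was sequenced, and every liver was labelled Fah-/-, a genotype that lacks the last enzyme of tyrosine breakdown (D0 included). The YC group (7 libraries) and the vehicle group (8 libraries) came from animals that had received hepatocytes labelled td and were treated with YC or with vehicle over the 28 days that followed withdrawal of NTBC, the drug that protects livers without Fah. The D0 group (7 libraries) was taken at day 0 and is labelled normal liver, with no transplant or treatment named. The sources used here do not spell out the abbreviation YC or give the strain, the age or the Fah status of the transplanted cells. The labels number the samples of each group but do not state that every sample is a separate animal, and p-values therefore rest only on the spread seen between samples, part of which may be technical. The series' design text states its question as whether YC acts on the growth of transplanted hepatocytes through dedifferentiation.

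Bile ducts are lined by cholangiocytes, epithelial cells that share an embryonic precursor, the hepatoblast, with hepatocytes. They contain keratins 7 and 19, carry Epcam, Tspan8 and Muc1 at the surface and secrete osteopontin, the product of Spp1. Sox9 and Sox4 are transcription factors used in building the ducts, and Bicc1 is an RNA-binding protein whose loss gives cystic ducts and kidneys in mice. In injured livers these genes come on in a ductular reaction, an outgrowth of duct-like and progenitor-like cells around the portal veins, and hepatocytes themselves can switch some of them on. In RNA from whole liver, a higher value can come from more cells of a type or from more RNA in each cell, and these cannot be told apart.

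The gene named in the genotype was examined first. Fah had 31.5 to 407 RPKM (read counts divided by transcript length and by library size) in YC libraries, 271 to 542 RPKM in vehicle libraries and 21.1 to 38.7 RPKM in D0 libraries. The libraries labelled YC 6 and YC 7, with 41.3 and 31.5 RPKM of Fah, lay near or within the D0 range, so results that rest on them are given with and without them. Y-linked transcripts were present in all 8 vehicle libraries and in YC 1 to YC 3, and were at or near 0 in YC 4 to YC 7 and in all D0 libraries, so this property cannot be told apart from the difference between vehicle and D0. Depth, recovered from the steps of low values, lay between 50250000 and 82750000 reads or fragments per library, at which 0.5 RPKM of a transcript of 2000 bases stands for 50.25 to 82.75 reads. Albumin, the main hepatocyte product, took 4.58% ± 1.86 of all RPKM in YC libraries (SD, n = 7), 8.75% ± 2.51 in vehicle libraries (SD, n = 8) and 7.87% ± 1.26 in D0 libraries (SD, n = 7). The summed RPKM of 15 hepatocyte genes was 38575 to 67837 in YC libraries, 72517 to 107572 in vehicle libraries and 56774 to 76407 in D0 libraries, so every YC library lay below every vehicle library and the YC and D0 ranges overlapped.

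The 9 transcripts differed in which comparisons they passed. Sox4, Bicc1, Krt19 and Sox9 were called higher in YC than in vehicle, whereas Krt7, Epcam, Tspan8, Spp1 and Muc1 did not pass the test in that comparison. Every one of them except Sox9 rose in vehicle relative to D0, and all 9 rose in YC relative to D0. All 9 passed the filter on low values, also when only the libraries outside any single group were counted. Tests were made with limma on log2(RPKM + 0.5) across 12537 genes, with Benjamini-Hochberg adjustment and calls at an adjusted p under 0.05. Of the 9, 4 were called higher and 0 lower in YC than in vehicle, where 44.6% of all genes tested were called higher and 6.14% lower. In vehicle against D0, 8 were called higher and 0 lower, where 28.2% of all genes were called higher and 29.9% lower. In YC against D0, 9 were called higher and 0 lower, where 41.2% of all genes were called higher and 12.3% lower. The share called in YC against vehicle, 4 of 9, was near that of all genes. The median log2 difference of the 9 was 0.39 in YC minus vehicle, 1.29 in vehicle minus D0, and 1.96 for YC minus D0, beside medians over all genes of 0.31, 0.00 and 0.25. The 3 comparisons share libraries (each group enters 2 of them), so their results are not independent.

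**Figure D1:**
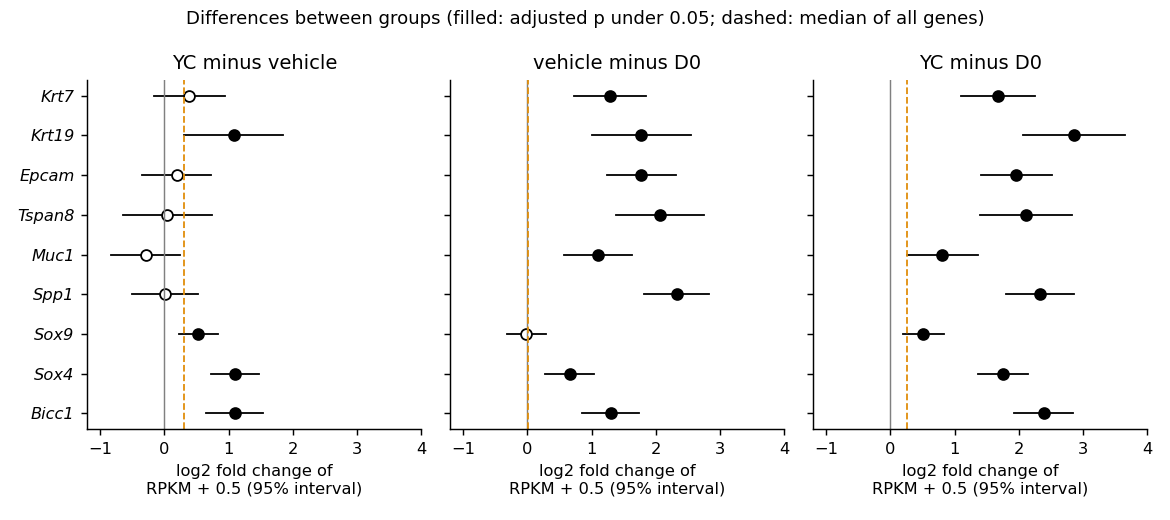
Log2 fold change of RPKM + 0.5 for each of the 9 transcripts (points, with 95% intervals from limma) for the differences YC minus vehicle (left), vehicle minus D0 (middle), and YC minus D0 (right). Filled points passed an adjusted p under 0.05 and the dashed line is the median of all genes tested, which was 0.31, 0.00 and 0.25. In YC minus vehicle the filled points are Krt19, Sox9, Sox4 and Bicc1. In vehicle minus D0 Sox9 is the open one.

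A scaling choice touches the first of these comparisons. As deposited, RPKM were higher in YC than in vehicle for most genes, with 5587 genes called higher and 770 lower, which is 87.9% higher among those called. When libraries were scaled by the median ratio to a common profile, the split was 2280 higher and 2098 lower (52.1% higher) and the median of all genes moved from 0.31 to 0.01. Under that scaling the log2 differences of YC minus vehicle were 0.81 for Sox4 (adjusted p = 0.0008) and 0.77 for Bicc1 (adjusted p = 0.0034), which kept their calls, and 0.75 for Krt19 (adjusted p = 0.11) and 0.22 for Sox9 (adjusted p = 0.2), which lost them (all limma with Benjamini-Hochberg adjustment). The median of the 9 was 0.09 under it and 0.03 under quantile normalization, against 0.39 as deposited, and 0.25 without YC 5. The uncalled differences of Epcam, Tspan8 and Spp1 turned negative under median-ratio scaling, at -0.13, -0.28 and -0.34. That scaling also moved the split of YC against D0 from 77.1% to 47.4% higher, and Sox9 and Muc1 lost their calls there.

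Among the transcription factors, Sox4 gave the clearest separation of YC from vehicle. Sox4 (chr13:28948919-28953713, minus strand, mm10) encodes an HMG-box factor that acts with Sox9 in the forming ducts of mouse embryos. Its RPKM had a lowest value of 2.303, a median of 3.80 and a highest value of 5.55 in YC libraries, against 0.736, 1.53 and 2.299 in vehicle libraries and 0.493, 0.670 and 1.28 in D0 libraries. Every YC library thus lay above every vehicle library, although the nearest values, YC 4 and vehicle 6, differed by less than 0.01 RPKM. The log2 difference was 1.10 ± 0.18 (SE) in YC minus vehicle, 2.14-fold (limma, Benjamini-Hochberg adjusted p = 4.64e-05). It was 0.66 ± 0.18 in vehicle minus D0 (limma, Benjamini-Hochberg adjusted p = 0.0038) and 1.75 ± 0.19 in YC minus D0 (limma, Benjamini-Hochberg adjusted p = 5.87e-08). The predicted gene Gm26735 overlaps Sox4 on the other strand, and since the sources used here do not say whether strand was used, reads of the pair cannot be told apart. The Sox4 promoter, from RefSeq on GRCm38.p6 (chr13:28953650-28953949, minus strand, 250 bases before to 50 after the start), is shown because the gene separated YC from vehicle. Capitals mark GGAATG, a motif of the TEAD factors that bring YAP to DNA, at position -168 from the start, and TGGGAA, a motif of the Notch effector RBPJ, at position -100.
Sox4: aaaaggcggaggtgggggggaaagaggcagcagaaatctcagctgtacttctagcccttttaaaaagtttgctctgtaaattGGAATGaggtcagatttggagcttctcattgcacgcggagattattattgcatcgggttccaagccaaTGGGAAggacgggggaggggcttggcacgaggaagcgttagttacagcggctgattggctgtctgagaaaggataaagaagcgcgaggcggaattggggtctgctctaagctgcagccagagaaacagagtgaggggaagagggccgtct
On both strands, GGAATG was found in 14.7% and TGGGAA in 25.6% of the 32851 promoter windows of the same length, so neither is rare, and a match is not evidence of binding. The AP-1 motif TGANTCA (7.81% of windows) and TATAAA (13.6% of windows) are not in this window.

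Sox9 stood apart from the other 8 in that no difference between vehicle and D0 was detected. Sox9 (chr11:112782224-112787760, plus strand) encodes the HMG-box factor that marks the first biliary cells. Across libraries, Sox9 RPKM had a lowest value of 3.94, a median of 4.63 and a highest value of 6.52 in YC libraries, against 2.23, 3.21 and 4.17 in vehicle libraries and 2.14, 3.70 and 4.22 in D0 libraries. The vehicle and D0 ranges nearly coincided, and 6 of 7 YC libraries lay above all 8 vehicle libraries. On the log2 scale, the difference was 0.53 ± 0.15 in YC minus vehicle (limma, Benjamini-Hochberg adjusted p = 0.005) and 0.51 ± 0.15 in YC minus D0 (limma, Benjamini-Hochberg adjusted p = 0.0067). In vehicle minus D0 it was -0.02, with a 95% interval of -0.32 to 0.29 (limma, Benjamini-Hochberg adjusted p = 0.94). Within libraries, the ratio of each of the other 8 transcripts to Sox9 was higher in vehicle than in D0. The smallest of these differences was for Sox4, where the log2 ratio of Sox9 to Sox4 differed by -0.67 (exact permutation p = 0.00155, adjusted p = 0.006). The largest was for Spp1, where the log2 ratio of Spp1 to Sox9 differed by 2.34 (exact permutation p = 0.000311, adjusted p = 0.0034), and this p is the smallest that 8 libraries against 7 can give.

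Bicc1 rose in each of the 3 comparisons. It lies at chr10:70922832-71159700 (minus strand) and overlaps 4 predicted or little-described genes. The lowest RPKM of Bicc1 was 4.68, a median of 10.7 and a highest value of 12.6 in YC libraries, against 2.08, 4.36 and 8.82 in vehicle libraries and 1.29, 1.47 and 1.96 in D0 libraries. All YC and all vehicle libraries lay above all D0 libraries, and all YC libraries except YC 4 lay above all vehicle libraries. The log2 difference was 1.09 ± 0.22 in YC minus vehicle (limma, Benjamini-Hochberg adjusted p = 0.00028), 1.29 ± 0.22 in vehicle minus D0 (limma, Benjamini-Hochberg adjusted p = 2.64e-05) and 2.39 ± 0.22 in YC minus D0 (limma, Benjamini-Hochberg adjusted p = 6.72e-09). YC 4, at 4.68 RPKM, was also the library with the most pancreatic acinar transcripts, at 1067 RPKM summed over 10 genes, and their part in its value was not tested. Without YC 4 and vehicle 1, the other library rich in them at 369 RPKM, the difference of YC minus vehicle was 1.32 (limma, Benjamini-Hochberg adjusted p = 1.16e-05).

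**Figure D2:**
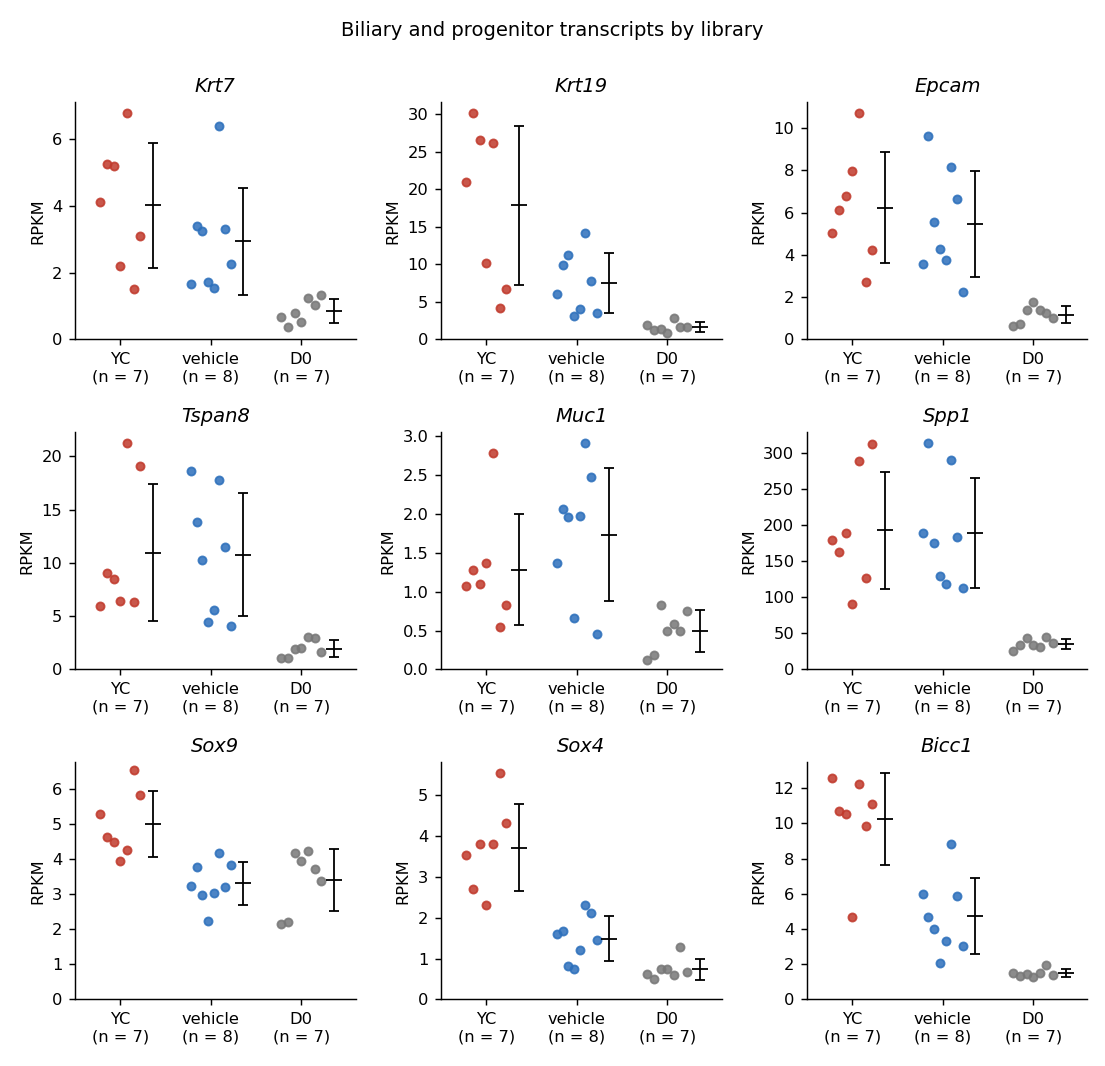
RPKM of the 9 transcripts in each library (points) of the YC, vehicle and D0 groups, with the mean and SD beside each group. The axis differs between panels and starts at 0. Sox4 separates YC from vehicle, Spp1 and Tspan8 separate both from D0 only, and Krt19 in YC spreads from 4.22 to 30.1 RPKM.

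The duct keratins did not behave alike. Krt19 (chr11:100140810-100148665, minus strand) encodes keratin 19, the usual stain for bile ducts. Krt19 RPKM had a lowest value of 4.22, a median of 20.9 and a highest value of 30.1 in YC libraries, against 3.12, 6.91 and 14.2 in vehicle libraries and 0.832, 1.62 and 2.84 in D0 libraries. YC 1, YC 2, YC 3 and YC 5 lay above all vehicle libraries, while YC 4, YC 6 and YC 7 lay within the vehicle range. On the log2 scale, the difference was 1.08 ± 0.37 in YC minus vehicle (limma, Benjamini-Hochberg adjusted p = 0.0191), 1.77 ± 0.37 in vehicle minus D0 (limma, Benjamini-Hochberg adjusted p = 0.00033) and 2.86 ± 0.39 in YC minus D0 (limma, Benjamini-Hochberg adjusted p = 1.70e-06). The call of YC against vehicle was kept when any single library other than YC 2 was left out. Without YC 2 the difference was 0.91 (limma, Benjamini-Hochberg adjusted p = 0.052), without YC 6 and YC 7 it was 1.63 (limma, Benjamini-Hochberg adjusted p = 0.00032), and among libraries with Y-linked transcripts (YC 1 to YC 3 against 8 vehicle libraries) it was 1.88 (limma, Benjamini-Hochberg adjusted p = 0.002).

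Krt7 (chr15:101411043-101430313, plus strand) encodes keratin 7, a partner of keratin 19 in duct epithelium. Its RPKM had a lowest value of 1.51, a median of 4.11 and a highest value of 6.77 in YC libraries, against 1.53, 2.75 and 6.39 in vehicle libraries and 0.361, 0.793 and 1.34 in D0 libraries. The YC and vehicle ranges almost coincided, and both lay above the D0 range. The highest vehicle value was that of vehicle 6, and the next, that of vehicle 2, was 3.39 RPKM. The log2 difference was 0.39 ± 0.27 in YC minus vehicle, with a 95% interval of -0.17 to 0.95 (limma, Benjamini-Hochberg adjusted p = 0.24). It was 1.29 ± 0.27 in vehicle minus D0 (limma, Benjamini-Hochberg adjusted p = 0.00031) and 1.67 ± 0.28 in YC minus D0 (limma, Benjamini-Hochberg adjusted p = 2.41e-05). Without YC 6 and YC 7 the difference of YC minus vehicle was 0.64 (limma, Benjamini-Hochberg adjusted p = 0.0526). Among libraries with Y-linked transcripts it was 0.75 (limma, Benjamini-Hochberg adjusted p = 0.0695), so Krt7 was uncalled but close to the threshold in both. Within libraries, the log2 ratio of Krt7 to Krt19 averaged -1.86 ± 0.53 in YC libraries (SD, n = 7) and -1.16 ± 0.39 in vehicle libraries (SD, n = 8), so Krt19 gained on Krt7 in YC (difference -0.69, exact permutation p = 0.0155, adjusted over 108 ratio tests p = 0.0357). The predicted gene Gm671 overlaps Krt7 on the other strand.

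Markers of mesothelium, the sheet of cells that covers the liver and also makes simple-epithelial keratins, varied along with both keratins among YC libraries. Among vehicle libraries they did so less evenly. The summed RPKM of 7 mesothelial genes was 3.02 to 29.3 in YC libraries, 1.39 to 27.9 in vehicle libraries and 0.553 to 6.09 in D0 libraries. It was 15.9, 11.3, 22.5 and 29.3 in YC 1, YC 2, YC 3 and YC 5, the libraries with the most Krt19, and 3.85, 3.02 and 3.99 in YC 4, YC 6 and YC 7. Vehicle 6, the vehicle library with the most Krt19 and Krt7, had the highest vehicle sum, 27.9. However, vehicle 1 and vehicle 8, with sums of 13.7 and 13.4, had only 6.08 and 3.57 RPKM of Krt19. They had 1.67 and 2.26 RPKM of Krt7. Of the 6 mesothelial genes tested, 1 was called higher in YC than in vehicle (Lrrn4, named after its value was seen, 0.59 ± 0.24), 3 were called higher in vehicle than in D0 and 4 in YC than in D0, with none lower, and Muc16 was under 0.5 RPKM in every library. Of all genes tested, 44.6%, 28.2% and 41.2% were called higher in these comparisons. Libraries with close sums varied in Krt19. At sums of 3.85 and 3.93, YC 4 had 10.2 and vehicle 2 had 9.93 RPKM of Krt19, while YC 7, at 3.99, had 6.73. YC 6, at 3.02, had 4.22 RPKM, and vehicle 5, at 4.89, had 4.03 RPKM. At 11.3 and 10.1, YC 2 had 30.1 and vehicle 3 had 11.2 RPKM. At 15.9 and 13.7, YC 1 had 20.9 and vehicle 1 had 6.08 RPKM. At 29.3 and 27.9, YC 5 had 26.1 and vehicle 6 had 14.2 RPKM. These few libraries were not compared by a test, and the part of mesothelial cells in the keratin values was not tested.

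**Figure D3:**
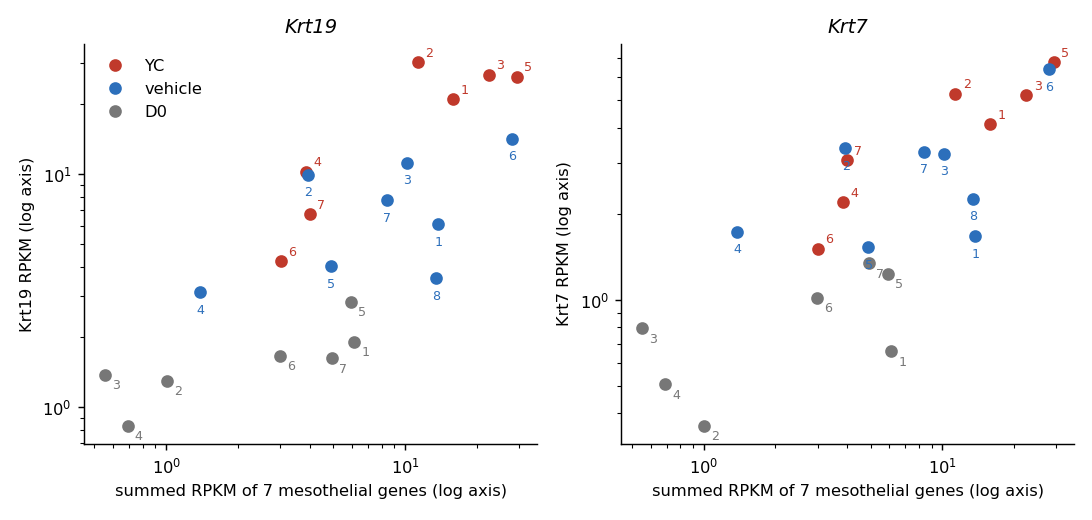
RPKM of Krt19 (left) and Krt7 (right) against the summed RPKM of 7 mesothelial genes in each library, both on log axes, with replicate numbers beside the points. YC 1, YC 2, YC 3 and YC 5 sit at the upper right of both panels. D0 libraries, with sums of 0.553 to 6.09, sit lowest.

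The surface proteins were higher in both 28-day groups than in D0 and did not differ detectably between YC and vehicle. Epcam (chr17:87635979-87651129, plus strand) encodes an adhesion molecule of biliary and progenitor cells that mature hepatocytes lack. Epcam RPKM had a lowest value of 2.73, a median of 6.15 and a highest value of 10.7 in YC libraries, against 2.26, 4.91 and 9.62 in vehicle libraries and 0.629, 1.24 and 1.76 in D0 libraries. Every library of YC and vehicle lay above every D0 library. On the log2 scale, the difference was 0.19 ± 0.26 in YC minus vehicle, with a 95% interval of -0.34 to 0.72 (limma, Benjamini-Hochberg adjusted p = 0.56), 1.77 ± 0.26 in vehicle minus D0 (limma, Benjamini-Hochberg adjusted p = 4.96e-06) and 1.96 ± 0.27 in YC minus D0 (limma, Benjamini-Hochberg adjusted p = 1.68e-06).

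Tspan8 (chr10:115816832-115849893, plus strand) encodes a tetraspanin of epithelial surfaces. For Tspan8 the lowest RPKM was 5.94, a median of 8.47 and a highest value of 21.2 in YC libraries, against 4.06, 10.9 and 18.6 in vehicle libraries and 1.05, 1.96 and 3.00 in D0 libraries. YC and vehicle overlapped almost completely and neither overlapped D0. The log2 difference was 0.05 ± 0.33 in YC minus vehicle, with a 95% interval of -0.64 to 0.73 (limma, Benjamini-Hochberg adjusted p = 0.92), 2.07 ± 0.33 in vehicle minus D0 (limma, Benjamini-Hochberg adjusted p = 1.80e-05) and 2.11 ± 0.34 in YC minus D0 (limma, Benjamini-Hochberg adjusted p = 1.92e-05). Another annotated gene, 4930422I22Rik, overlaps it on the other strand.

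Muc1 (chr3:89229057-89233381, plus strand) encodes a mucin of the luminal face of ducts and was the lowest of the 9 in YC and in D0. Its RPKM had a lowest value of 0.548, a median of 1.10 and a highest value of 2.79 in YC libraries, against 0.452, 1.97 and 2.91 in vehicle libraries and 0.125, 0.490 and 0.833 in D0 libraries. As deposited, it was the only one of the 9 with a negative difference of YC minus vehicle, and its ranges overlapped in all 3 comparisons. On the log2 scale, the difference was -0.29 ± 0.26 in YC minus vehicle, with a 95% interval of -0.83 to 0.24 (limma, Benjamini-Hochberg adjusted p = 0.35), 1.10 ± 0.26 in vehicle minus D0 (limma, Benjamini-Hochberg adjusted p = 0.00093) and 0.81 ± 0.27 in YC minus D0 (limma, Benjamini-Hochberg adjusted p = 0.0138). Only 3 of 7 D0 libraries reached 0.5 RPKM, and at that level the added 0.5 makes the fold change an understatement.

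Spp1, the secreted member, was by far the most abundant. Spp1 (chr5:104435118-104441050, plus strand) encodes osteopontin, a matrix protein made by duct cells and, in injured liver, by macrophages. Spp1 RPKM had a lowest value of 90.0, a median of 179 and a highest value of 312 in YC libraries, against 113, 179 and 314 in vehicle libraries and 25.3, 33.8 and 44.9 in D0 libraries. The YC and vehicle medians differed by less than 1 RPKM, and every library of both lay above every D0 library. The log2 difference was 0.01 ± 0.25 in YC minus vehicle, with a 95% interval of -0.50 to 0.52 (limma, Benjamini-Hochberg adjusted p = 0.98), 2.32 ± 0.25 in vehicle minus D0, which is 5.00-fold (limma, Benjamini-Hochberg adjusted p = 7.91e-08), and 2.33 ± 0.26 in YC minus D0 (limma, Benjamini-Hochberg adjusted p = 7.75e-08). Genes of lipid-associated macrophages, a cell state that makes osteopontin, were likewise higher in both 28-day groups than in D0. The summed RPKM of 7 such genes (Gpnmb, Trem2, Cd9, Mmp12, Itgax, Fabp5 and Lpl) was 251 to 562 in YC libraries, 149 to 367 in vehicle libraries and 31.4 to 53.5 in D0 libraries, with Gpnmb and Mmp12 under 0.5 RPKM in every D0 library. All 7 were called higher in vehicle and in YC than in D0, where 28.2% and 41.2% of all genes were called higher. In YC against vehicle 3 of 7, Cd9, Fabp5 and Lpl, were called higher, a share near the 44.6% of all genes. The higher sum in YC came from those 3, while Gpnmb, Trem2, Mmp12 and Itgax had lower means in YC than in vehicle and were not called, and the median log2 difference of the 7 was -0.12. Among YC libraries, YC 1 had the highest sum, 562, with 179 RPKM of Spp1, whereas YC 7 had a sum of 509 with 312 RPKM of Spp1. The part of these macrophage genes in the Spp1 values was not tested. The predicted gene Gm42793 overlaps Spp1 on the same strand.

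The promoters of Muc1 and Spp1 are shown beside that of Sox4. Of the transcripts that did not pass the test between YC and vehicle, these are the ones with a window that held a motif. Both are from RefSeq on GRCm38.p6, plus strand, at chr3:89228806-89229105 for Muc1 and at chr5:104434861-104435160 for the first listed start of Spp1. Capitals mark GGAATG at position -132 and TATAAA at position -31 in Muc1, and TATAAA at position -211 in Spp1.
Muc1: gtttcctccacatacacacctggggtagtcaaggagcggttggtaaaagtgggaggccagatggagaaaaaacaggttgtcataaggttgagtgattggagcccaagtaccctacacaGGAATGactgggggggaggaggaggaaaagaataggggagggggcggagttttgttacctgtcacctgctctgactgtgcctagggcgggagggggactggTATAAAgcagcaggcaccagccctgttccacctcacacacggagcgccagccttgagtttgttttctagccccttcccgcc
Spp1: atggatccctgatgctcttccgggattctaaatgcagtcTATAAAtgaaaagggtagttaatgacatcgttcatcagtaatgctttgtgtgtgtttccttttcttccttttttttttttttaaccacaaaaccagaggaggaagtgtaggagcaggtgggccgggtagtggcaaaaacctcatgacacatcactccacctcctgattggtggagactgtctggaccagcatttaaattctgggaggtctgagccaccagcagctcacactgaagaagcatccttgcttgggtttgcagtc
The TEAD motif is present in the windows of both Sox4 and Muc1, and its part in their values was not tested. RefSeq windows were matched for 6 of the 9 genes (7 windows, with 2 starts for Spp1). Krt7, Epcam, Tspan8 and the second Spp1 window held none of the 4 motifs, and no window held TGANTCA.

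Mean levels per kilobase placed the 9 transcripts in a different order in each group. Spp1 came first in all 3 groups, with means of 193 ± 81.2 RPKM in YC (SD, n = 7), 189 ± 75.9 RPKM in vehicle (SD, n = 8) and 35.5 ± 6.89 RPKM in D0 (SD, n = 7), and never overlapped the next. In YC the order after it was Krt19 (17.9 ± 10.6 RPKM), Tspan8 (10.9 ± 6.44), Bicc1 (10.2 ± 2.63), Epcam (6.24 ± 2.62), Sox9 (4.99 ± 0.93), Krt7 (4.01 ± 1.87), Sox4 (3.71 ± 1.06) and Muc1 (1.28 ± 0.72). In vehicle it was Tspan8 (10.7 ± 5.77 RPKM), Krt19 (7.48 ± 4.01), Epcam (5.48 ± 2.51), Bicc1 (4.72 ± 2.14), Sox9 (3.30 ± 0.61), Krt7 (2.94 ± 1.60), Muc1 (1.73 ± 0.85) and Sox4 (1.49 ± 0.56). In D0 Sox9 came next after Spp1, at 3.39 ± 0.88 RPKM, above Tspan8 (1.96 ± 0.80 RPKM), Krt19 (1.65 ± 0.63), Bicc1 (1.49 ± 0.22), Epcam (1.16 ± 0.40), Krt7 (0.844 ± 0.37), Sox4 (0.737 ± 0.26) and Muc1 (0.495 ± 0.26). All neighbours below Spp1 overlapped in range, and some steps in the means did not hold within most libraries. Tspan8 exceeded Bicc1 in only 3 of 7 YC libraries, and Krt19 exceeded Bicc1 in only 3 of 7 D0 libraries. Compared within libraries, Sox4 exceeded Muc1 in 7 of 7 YC libraries, whereas Muc1 exceeded Sox4 in 5 of 8 vehicle libraries.

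The 36 pairs were also compared as log2 ratios within a library, taken of RPKM + 0.5, so that scaling enters only through the added 0.5. Over the 3 comparisons 108 exact two-sided permutation tests were made, and p-values were adjusted over all 108. In YC against vehicle, 12 of 36 ratios differed at an adjusted p under 0.05, in vehicle against D0 22 and in YC against D0 17. In all of the 12 except Epcam to Muc1, the transcript that gained was Sox4, Bicc1 or Krt19. The ratio of Spp1 to Bicc1 was lower in every YC library than in every vehicle library (log2 difference -1.08, exact permutation p = 0.000311, adjusted p = 0.0034). The ratios of Muc1 to Sox4, Muc1 to Bicc1 and Krt19 to Muc1 differed by -1.39, -1.38 and 1.38, and those of Tspan8 to Sox4 and Tspan8 to Bicc1 by -1.05 and -1.04. The ratio of Sox9 to Sox4 differed by -0.57 and that of Epcam to Muc1 by 0.48. No ratio between Sox9 and Krt7, Epcam, Tspan8, Spp1 or Muc1 passed (smallest exact permutation adjusted p = 0.0619, with Muc1). The remaining ratios past the threshold were Spp1 to Sox4 (-1.09), Krt7 to Bicc1 (-0.70), Krt19 to Epcam (0.89) and Krt7 to Krt19 (-0.69). Among Sox4, Bicc1 and Krt19 themselves the ratio of Krt19 to Sox4 differed most, by -0.01.

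**Figure D4:**
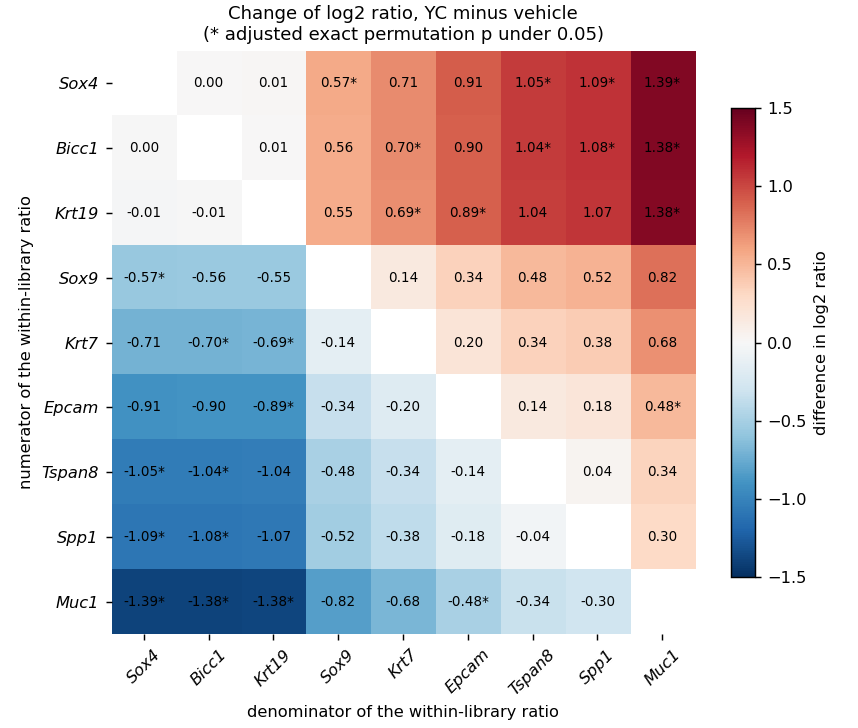
Difference of the log2 ratio of each pair of transcripts between YC and vehicle (YC minus vehicle), with the numerator in rows and the denominator in columns. The lower left mirrors the upper right with its sign turned, and stars mark an adjusted exact permutation p under 0.05. Sox4, Bicc1 and Krt19 against Muc1 give 1.39, 1.38 and 1.38.

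The YC libraries differed among themselves in which of the transcripts were high. YC 6 had the most Sox4 (5.55 RPKM) and the most Sox9 (6.52 RPKM) of the 7 but the least Krt19 (4.22 RPKM), Krt7 (1.51 RPKM), Epcam (2.73 RPKM) and Muc1 (0.548 RPKM). YC 7 came next to it in Sox4, at 4.31 RPKM, and in Sox9, at 5.83 RPKM, and also next to it from the bottom in Krt19, Epcam and Muc1, but had the most Spp1 of the 7, at 312 RPKM. These were the libraries with Fah near the D0 level. YC 5 had the most Epcam, Krt7, Tspan8 and Muc1, at 10.7, 6.77, 21.2 and 2.79 RPKM. YC 4 had the least Sox4, Sox9, Bicc1 and Spp1 of the group. Without YC 6 and YC 7 the same number of transcripts, 4, was called higher in YC than in vehicle, with log2 differences of 0.94 for Sox4, 1.06 for Bicc1, 1.63 for Krt19 and 0.41 for Sox9, and 9 were still called in YC against D0.

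**Figure D5:**
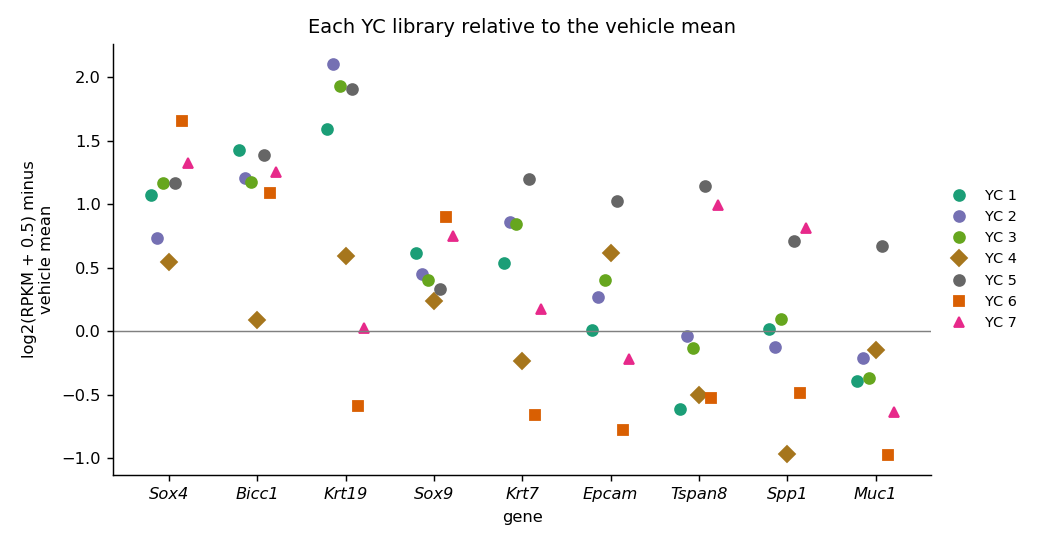
Log2(RPKM + 0.5) of each YC library minus the mean of the vehicle libraries (line at 0) for the 9 transcripts, with 1 symbol and colour per library. All 7 libraries lie above 0 for Sox4, Bicc1 and Sox9, while YC 6 has the highest Sox4 and the lowest Krt19.

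Within groups the 9 transcripts tended to be high in the same libraries, more so in vehicle than in YC. Of the 36 pairs, 26 had a positive Pearson r in YC (median 0.34, from -0.94 to 0.94), 36 in vehicle (median 0.69) and 33 in D0 (median 0.47). None of the 108 correlations passed an adjusted p under 0.05 (the smallest adjusted p was 0.0994), and the difference between groups was not tested. The strongest negative pair was Epcam with Sox9 in YC, with Pearson's r = -0.94 (exact permutation p = 0.00198, n = 7) and Spearman's rho = -0.96 (exact permutation p = 0.00278, n = 7), and r = -0.997 without the 2 libraries farthest from the median of Epcam. In D0 the same pair had r = 0.93 (exact permutation p = 0.00417, n = 7) and rho = 0.89 (exact permutation p = 0.0123, n = 7), and r = 0.70 without the 2 farthest libraries. In vehicle it had r = 0.26 (exact permutation p = 0.546, n = 8) and rho = 0.14 (exact permutation p = 0.752, n = 8).

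Other genes of bile duct and progenitor cells were read from a list. Of 24 listed, 18 passed the filter on low values and were tested. In YC against vehicle 7 of 18 were called higher and 0 lower, a share called higher that was not above the 44.6% of all genes, with a median log2 difference of 0.39 beside 0.31 over all genes. Cldn4, a claudin of tight junctions, had the smallest adjusted p and the largest difference, with 18.8 ± 8.85 RPKM in YC (SD, n = 7) and 2.01 ± 1.26 RPKM in vehicle (SD, n = 8), a log2 difference of 2.99 ± 0.32 (limma, Benjamini-Hochberg adjusted p = 5.31e-07). Krt23, a keratin of injured liver, averaged 21.3 ± 9.01 RPKM in YC and 7.92 ± 3.03 RPKM in vehicle (log2 difference 1.37 ± 0.27). Cd24a, a surface protein of progenitor cells, averaged 32.8 ± 17.6 RPKM in YC and 12.4 ± 5.03 RPKM in vehicle (log2 difference 1.24 ± 0.31). The other 4 called higher were St14, Krt8, Krt18 and Prom1, of which Krt8 and Krt18 are keratins that hepatocytes make as well.

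In vehicle against D0, 9 of the 18 were called higher and 1 lower, where 28.2% of all genes were called higher and 29.9% lower, with a median of 0.36 beside 0.00 over all genes. St14, a membrane protease of epithelia, averaged 2.06 ± 1.06 RPKM in vehicle (SD, n = 8) and 0.358 ± 0.13 RPKM in D0 (SD, n = 7), a log2 difference of 1.49 ± 0.22 and the smallest adjusted p (limma, Benjamini-Hochberg adjusted p = 7.17e-06). Cldn3, a claudin of ducts and hepatocytes, averaged 58.6 ± 13.3 RPKM in vehicle and 13.3 ± 6.13 RPKM in D0 (log2 difference 2.17 ± 0.32), and Cd24a differed by 1.82 ± 0.31. The 1 that fell was Onecut1, a transcription factor of hepatoblasts, at 1.22 ± 0.69 RPKM in vehicle and 2.15 ± 1.02 RPKM in D0 (log2 difference -0.63 ± 0.23). In YC against D0, 13 were called higher and 2 lower, where 41.2% of all genes were called higher and 12.3% lower, with a median of 1.24 beside 0.25 over all genes. Cldn4 led again with a log2 difference of 4.75 ± 0.33 (limma, Benjamini-Hochberg adjusted p = 8.88e-11), with 18.8 ± 8.85 RPKM in YC libraries and 0.151 ± 0.08 RPKM in D0 libraries, and Cd24a (3.06 ± 0.32) and St14 (2.67 ± 0.23) came next. Onecut1 (-0.66 ± 0.24) and its relative Onecut2 (-0.65 ± 0.22) were the 2 that fell.

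Notch and YAP signalling both act on biliary identity, Notch through its ligands and receptors at the portal vein and YAP through TEAD factors in hepatocytes that turn duct-like. Of 11 genes of the Notch pathway 9 were tested (not Jag2 and Notch3). In YC against vehicle 6 were called higher and 0 lower, in vehicle against D0 1 higher and 5 lower, and in YC against D0 3 higher and 3 lower. Of all genes tested, 44.6%, 28.2% and 41.2% were called higher in these comparisons, and 6.14%, 29.9% and 12.3% lower. The medians of the Notch genes were 0.45, -0.30 and -0.01 beside 0.31, 0.00 and 0.25 over all genes. The receptor Notch2 had the smallest adjusted p in YC against vehicle, with 4.18 ± 0.98 RPKM in YC (SD, n = 7) and 2.49 ± 0.80 RPKM in vehicle (SD, n = 8), a log2 difference of 0.66 ± 0.16. The receptor Notch1 had it in vehicle against D0, with 2.48 ± 0.32 RPKM in vehicle and 6.36 ± 1.67 RPKM in D0 (-1.17 ± 0.15), and the target gene Hey1 in YC against D0 (1.01 ± 0.17). Unlike 8 of the 9 markers, most Notch genes called in vehicle against D0 were therefore lower in vehicle.

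Of 12 YAP target genes, all tested, 8 were called higher and 0 lower in YC against vehicle, 3 higher and 3 lower in vehicle against D0, and 6 higher and 0 lower in YC against D0, with medians of 0.81, 0.15 and 0.60, beside the same medians over all genes as for the Notch list and the shares called given above (44.6% higher in YC against vehicle). Crim1, a membrane protein, had the smallest adjusted p in YC against vehicle, with 9.46 ± 2.74 RPKM in YC (SD, n = 7) and 3.34 ± 0.87 RPKM in vehicle (SD, n = 8), a log2 difference of 1.35 ± 0.18 (limma, Benjamini-Hochberg adjusted p = 4.04e-06). Axl, a receptor kinase that macrophages also carry, had it in both comparisons with D0, at 14.1 ± 2.50 RPKM in YC, 14.5 ± 3.08 RPKM in vehicle and 3.97 ± 0.85 RPKM in D0 (SD, n = 7, 8 and 7). Axl did not differ detectably between YC and vehicle (log2 difference -0.04 ± 0.14).

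For each of the 9, the transcripts whose library-to-library deviations from the group means were most like it were listed over the 22 libraries, among 10934 candidates with a mean of at least 1 RPKM. Epcam was matched best by Cldn7 (Pearson's r = 0.92), Krt19 by Ltbp3 (0.91), Bicc1 by Osbpl3 (0.91) and Spp1 by Dcdc2a (0.89). Cldn7 and Dcdc2a were among the 24 other biliary genes listed. Muc1 was matched by Pigq (0.85), Tspan8 by Mcm6 (0.85), Krt7 by Smo (0.84), Sox4 by Map3k3 (0.81) and Sox9 by Wdpcp (0.79). The next 2 genes of each were Lig1 and Pdzk1ip1 for Epcam, Trim35 and Ezr for Krt19, Styk1 and Smpd3 for Bicc1, Emb and Kcne3 for Spp1, Ctdspl and Ctdsp2 for Muc1, Grk5 and Smoc2 for Tspan8, Timp1 and Chrnb1 for Krt7, Prkca and Ddc for Sox4, and Pkp2 and Hist1h4n for Sox9, with r between 0.75 and 0.87. All these values share the libraries and their scaling, and they are given as a description only.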

How the data were processed

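The authors deposited 1 table of RPKM values, with 1 column per library and no pooling. The notes name TopHat 1.4.1, Cufflinks 1.3.0 and the build mm10, per the submitters' processing notes, without their roles. The sources used here do not give the gene annotation, the filters or the use of strand. Per the labels' protocols, polyadenylated mRNA of flash-frozen liver was fragmented and copied to cDNA.

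Of 18716 rows, 27 had date-like names, 2 names occurred more than once and 17858 matched the GENCODE annotation of mm10, which gave the coordinates. The 12537 genes that reached 0.5 RPKM in 7 or more libraries were fitted as log2(RPKM + 0.5) with limma 3.58.1 (lmFit, eBayes with trend and robust, statmod 1.5.0, R 4.3.3) over all 22 libraries in 3 groups with no covariate, and p-values were adjusted by Benjamini-Hochberg over all genes. Added 0.5 understates changes of low genes. On data simulated for YC against vehicle (12537 genes), 172 of 200 genes changed by 1 log2 unit were recovered, with 12 false calls. The simulated noise was normal and independent between genes, and the 200 genes changed up and down in equal numbers. It held no shift over all genes like the one between YC and vehicle, so its rates do not carry over to the calls made here. Within-library ratios and correlations used exact two-sided permutation tests (Python 3.11.15, numpy 2.4.6, pandas 2.3.3, scipy 1.17.1, statsmodels 0.14.6, matplotlib 3.10.9).

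Depth was estimated from the steps of low values. At the estimates 29.8% to 35.0% of 396 to 589 low genes gave whole reads within 0.02, against a median of 2.78% to 3.23% over all depths tried, which was too few to use them in a count test. No interval from counting error was computed.

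The 9 genes and the 14 gene lists (135 entries) were chosen with earlier results of these data known. All 9 were named in each comparison. Of the other biliary list, the called gene with the smallest adjusted p and up to 2 further called genes per direction with the largest change were named. Of the Notch and YAP lists, the called gene with the smallest adjusted p was named, and for each of the 9 the 3 genes most like it, leaving out predicted symbols, as were Fah and Alb as checks. Any further list gene was picked for naming with its value known.

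Alternatives were other scalings, pseudocounts, filters and model settings, a replicate block, leaving out each library in turn, and leaving out YC 6 and YC 7, vehicle 1 and YC 4, or the libraries without Y-linked transcripts. Restricting YC against D0 to libraries without Y-linked transcripts was chosen after seeing the data.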

Additional observations from a re-analysis of the deposited data

Results flagged for a closer look

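In 5 of 27 combinations of transcript and group, the highest or lowest library lay farther from its neighbour than Dixon's 95% critical value allows, and chance alone flags about 1 in 20. Krt7 in vehicle 6 was 6.39 RPKM, the highest of the vehicle libraries, with a gap of 0.617 of the range, and that library also had the highest vehicle sum of mesothelial transcripts (27.9 RPKM). Muc1 in YC 5 was 2.79 RPKM, the highest of the YC libraries, with a gap of 0.635 of the range. Bicc1 in YC 4 was 4.68 RPKM, the lowest of the YC libraries, with a gap of 0.656 of the range, in the library with 1067 RPKM of pancreatic acinar transcripts. In D0 6 both Sox4 (1.28 RPKM) and Bicc1 (1.96 RPKM) were the highest of the D0 libraries, each with a gap of 0.674 of the range. Causes were not tested.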

How the results depend on the processing

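Of the log2 differences of the 9 transcripts, 255 values under the alternatives kept their side of the threshold (and, where called, their direction) in YC against vehicle, while 5 lost and 1 gained a call. In vehicle against D0 243 kept theirs and 0 lost it, and in YC against D0 248 kept theirs and 4 lost it. The number of the 9 called higher in YC than in vehicle was 2 under median-ratio scaling and 2 under quantile normalization, against 4 as deposited, and 1 (Muc1, -0.66, limma, Benjamini-Hochberg adjusted p = 0.0473) was called lower under quantile normalization, against 0. Krt19 (0.78) and Sox9 (0.13) lost their calls under quantile normalization too, as did Sox9 (0.14) and Muc1 (0.29) in YC against D0. These scalings set the median of all genes near 0 by construction. Leaving out each library in turn gave 3 to 4 calls in YC against vehicle. Of the other biliary genes, the number called lower in YC than in vehicle was 2 under median-ratio scaling, 4 under quantile normalization and 1 with array weights, against 0. In vehicle against D0 it was 2 under median-ratio scaling, with array weights, with equal totals and when vehicle 1 and YC 4 were left out, against 1, and 0 to 2 with each library left out (0 without D0 6 or D0 7). In YC against D0 it was 0 without YC 6 and YC 7 and 1 among libraries without Y-linked transcripts, against 2, and 1 to 2 with each library left out (1 without D0 7). The cause was not tested.

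Libraries with the same replicate number were not more alike than others. Deviations of same-numbered libraries correlated with a median r of -0.04 over 21 pairs (-0.39 to 0.23), and 5 pairs exceeded 0.1. Over 140 pairs with different numbers the median was 0.00, and 36 pairs exceeded 0.1. These values cannot show whether the numbers mark a shared origin of samples. A replicate block gave 4 calls higher and 0 lower among the 9 in YC against vehicle, 8 and 0 in vehicle against D0 and 9 and 0 in YC against D0, as without it. Depth limits Muc1 most, at 0.125 to 0.833 RPKM in D0.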

Other observations

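Lists of genes of other cell types gave the following counts of calls, to be read beside the shares of all genes called, which were 44.6% higher and 6.14% lower in YC against vehicle, 28.2% higher and 29.9% lower in vehicle against D0, and 41.2% higher and 12.3% lower in YC against D0. A count near these shares is no result about its cell type. Of 15 hepatocyte genes, 0 were called higher and 7 lower in YC than in vehicle (median log2 difference -0.63), 6 higher and 3 lower in vehicle than in D0, and 2 higher and 5 lower in YC than in D0. Of 8 macrophage genes, 0 were called in YC against vehicle, where the median was -0.32, and 7 were called higher in both comparisons with D0, with none lower. Their summed RPKM was 272 to 781 in YC, 406 to 1156 in vehicle and 96.6 to 193 in D0. Of 9 genes of stellate cells, the collagen-making cells of the liver, 3 were called higher in YC than in vehicle and 0 lower, 6 higher and 1 lower in vehicle than in D0, and 6 higher and 0 lower in YC than in D0. Of 6 endothelial genes, 1 was called higher and 1 lower in YC than in vehicle, and 2 higher and 1 lower in each comparison with D0. Of 5 lymphocyte genes tested, 3 were called lower in YC than in vehicle, 2 higher in vehicle than in D0 and 1 lower in YC than in D0. Of 3 intestinal genes tested, 1 was called higher in YC than in vehicle, 1 in vehicle than in D0 and 2 in YC than in D0, and the intestinal factors Cdx1 and Cdx2 were under 0.5 RPKM in every library. Of 3 pancreatic acinar genes tested, 1 was called higher in each comparison. Of 4 Y-linked genes, 2 were called lower in YC than in vehicle and 4 higher in each comparison with D0.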
